A study of Mus musculus with 3 samples.

Results

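Tumour necrosis factor and 8 genes of the NF-kB pathway that act on the pathway itself were followed through 3 single-cell RNA libraries from mouse suprarenal aorta. The members were chosen by name: Tnf, Tnfaip3, Tnip3, Nfkbia, Nfkbiz, Nfkbid, Nfkb1, Nfkb2 and Rel, 9 of the 27998 genes in the count matrices. The aneurysm library came from 4 pooled Apoe-/- mice kept for 16 weeks on a Western (high-fat) diet with cigarette smoke, all with a measurable dilatation of the aorta. The room air library came from 5 pooled Apoe-/- mice on the same diet for 16 weeks, and the control library from 5 pooled C57BL/6 mice on chow. Each pool was sorted for CD45+CD31- leukocytes and CD45-CD31+ endothelial cells, which sets the share of wall cells against leukocytes. With 1 library per group no value has a replicate and no p-value is given. All intervals are exact 95% intervals that cover counting error only. Genotype and diet change together between room air and control, as do smoke and aneurysm between aneurysm and room air, and these cannot be told apart. A group exposed to smoke without aneurysm was not analysed here.

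NF-kB is a family of dimeric transcription factors that inhibitor proteins, the IkB family, hold inactive. Signals from receptors for TNF, interleukin 1 or microbial products destroy the inhibitor and free the dimer, which then induces cytokines such as Tnf together with its own brakes. In the wall of the atherosclerotic or dilating aorta, macrophages are among the cells in which this pathway is known. Nfkbia encodes the classical cytoplasmic inhibitor IkB alpha, and Tnfaip3 encodes A20, a ubiquitin-editing enzyme that ends receptor signalling. Tnip3 encodes a partner protein of A20 that binds ubiquitin. Nfkb1, Nfkb2 and Rel encode subunits of the dimers, and the products of Nfkbiz and Nfkbid are nuclear members of the IkB family that adjust which targets respond.

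Feedback by NF-kB on its own genes rests on kappa B sites in their promoters, so the stretches upstream of the start sites of 4 members are shown as examples, Tnf without a match to the stricter motif and Tnip3, Nfkbia and Rel with one. RefSeq promoter windows on GRCm38.p6 matched 7 of the 9 members at 12 start sites. Nfkbiz and Nfkb1 were not matched. The windows hold the 250 bases upstream of a start site, and both strands were searched, so 1 palindromic stretch counts on each. GGG and CC with any 5 bases between them were present in 12 of 12 windows, against 46.0% of 32536 mouse promoters, and the stricter kappa B consensus, a subset of the first motif and named here only, was present in 8 of 12, against 3.92% of all promoters. Windows of the same gene are not independent, and some of Nfkb2 overlap. Counted by gene, the looser motif was present in 7 of 7 and the consensus in 6 of 7. The members were chosen by name as pathway genes, so the excess over all promoters is a description and was not tested. Capitals mark matches to the consensus. The Tnf window (chr17:35202008-35202257, minus strand) had no consensus match and held the looser motif at 194 bases upstream, readable on both strands. The Tnip3 window (chr6:65590148-65590397, plus strand) had 1 consensus stretch at 54 bases upstream, and lies inside the span of the longer annotated gene, chr6:65525313-65634040. In the Nfkbia window (chr12:55492648-55492897, minus strand) the match lay 29 bases upstream, and in the Rel window (chr11:23770970-23771219, minus strand) it lay 92 bases upstream.
Tnf promoter: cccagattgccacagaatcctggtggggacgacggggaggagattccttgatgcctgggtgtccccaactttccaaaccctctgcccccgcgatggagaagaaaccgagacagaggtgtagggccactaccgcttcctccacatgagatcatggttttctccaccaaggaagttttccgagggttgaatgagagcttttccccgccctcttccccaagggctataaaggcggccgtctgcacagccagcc
Tnip3 promoter: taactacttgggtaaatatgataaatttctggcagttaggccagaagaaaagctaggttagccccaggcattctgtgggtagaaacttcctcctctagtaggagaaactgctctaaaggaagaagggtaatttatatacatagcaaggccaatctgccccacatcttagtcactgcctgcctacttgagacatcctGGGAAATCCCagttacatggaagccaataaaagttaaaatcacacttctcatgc
Nfkbia promoter: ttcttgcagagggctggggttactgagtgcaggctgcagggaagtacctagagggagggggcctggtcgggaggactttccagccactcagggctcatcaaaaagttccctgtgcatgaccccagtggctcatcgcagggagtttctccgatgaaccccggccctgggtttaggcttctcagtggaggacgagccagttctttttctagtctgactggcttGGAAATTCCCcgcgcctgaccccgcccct
Rel promoter: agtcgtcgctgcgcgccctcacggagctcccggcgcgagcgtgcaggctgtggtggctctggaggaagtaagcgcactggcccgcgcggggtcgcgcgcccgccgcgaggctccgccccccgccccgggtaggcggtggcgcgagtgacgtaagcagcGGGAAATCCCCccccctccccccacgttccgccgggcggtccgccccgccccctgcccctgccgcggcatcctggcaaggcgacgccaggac
A match describes letters only and is not a measured binding site.

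The matrices held 16698309, 9998517 and 2568192 UMIs (unique molecular identifiers, the count of captured RNA molecules) in aneurysm, room air and control, with medians of 4476, 3884 and 2681 per barcode. After filtering, 2775, 1821 and 773 cells were kept and placed in 24 clusters. Apoe, the deleted gene, had 13.1, 17.1 and 10532 CPM (UMIs of a gene per 1000000 UMIs of the cells) in aneurysm, room air and control cells. The macrophage-like class held 652, 562 and 302 cells, but of different clusters. Cluster 2 (Apoe, Ccl24, Lyve1) held 285 of the 302 control cells and only 7 aneurysm and 12 room air cells. Clusters 6 (Ccl8, Cd209f), 19 (Ccl12, Ifit3) and 20 (Spp1, Gpnmb, Mmp12) held nearly all the others. Room air against control in this class therefore sets clusters 6, 19 and 20 against cluster 2. Among the macrophage markers, 8 of 8 were detected in each library. Free RNA was estimated from C1qa, C1qb, C1qc and Lyz2 in lymphocytes at 252, 549 and 95.2 UMIs per cell in aneurysm, room air and control.

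The members differed widely in level. Over all barcodes Nfkbia had 8316 UMIs, Nfkb1 3171, Nfkbiz 1690, Nfkb2 1630, Rel 1374, Tnfaip3 683, Tnip3 673, Nfkbid 352 and Tnf 341. Every cell class with at least 25 cells had Nfkbia, at 87.1 CPM or more, and Tnf had the fewest UMIs. Levels of different genes are counts per UMI from the 3' ends of transcripts, so a gene's length does not enter. Ordered by level within each gene and library, 199 of 216 pairs of neighbouring classes had overlapping intervals, so most orders below are loose and only wide gaps are named.

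**Figure D1:**
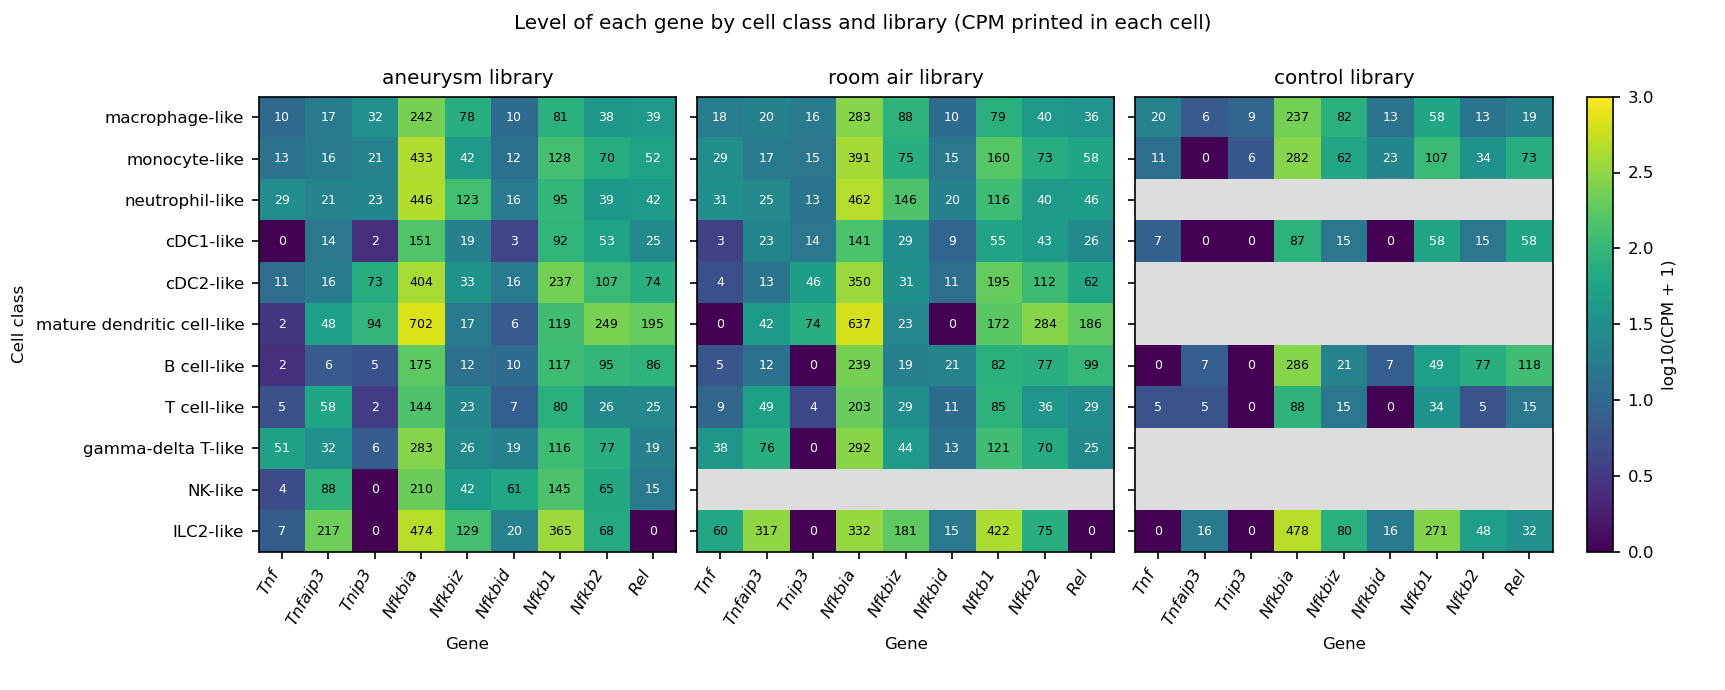
Level of the 9 genes in each cell class, with aneurysm, room air and control libraries from left to right. Colour is log10(CPM + 1), the number is CPM, and grey marks classes with fewer than 25 cells in that library. Nfkbia stands high in every class, Tnfaip3 in ILC2-like cells, and Nfkb2 and Rel in mature dendritic cell-like cells, while Tnip3 is low or absent in lymphoid classes.

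The ligand Tnf (ENSMUSG00000024401, chr17:35199381-35202007 on the minus strand) was lower in macrophage-like cells of the aneurysm library. It had 9.67 CPM (7.26 to 12.6, 54 UMIs) in aneurysm, 17.7 CPM (13.9 to 22.2, 75 UMIs) in room air and 20.4 CPM (12.9 to 30.5, 23 UMIs) in control. The intervals of aneurysm and room air do not overlap, and those of room air and control do. The ratio of aneurysm to room air was 0.55 (0.38 to 0.79), and that of room air to control was 0.87 (0.54 to 1.45). A ratio is called here when it passes 1.5-fold in a gene with at least 20 UMIs over both libraries. Tnf was the 1 member of 9 called lower in aneurysm, against 6.8% of the 10378 genes tested in this class. A Tnf UMI was seen in 7.52% of macrophage-like cells in aneurysm, 11.4% in room air and 6.62% in control. In B cell-like cells, which should hold little Tnf, it was 0.45%, 0.89% and 0%, at a median of 2235 UMIs in that cluster against 3210 to 8199 in the macrophage-like clusters. Thinned to 1500 UMIs per cell, shares in macrophage-like cells were 1.99%, 3.02% and 3.52%, with 18 shallower control cells left out. Free RNA accounted for an estimated 2.89%, 6.05% and 1.77% of the class level.

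Among the macrophage-like clusters compared, cluster 20, the Gpnmb and Spp1 macrophages, had the lowest ratio. Tnf had 6.35 CPM (15 UMIs, 257 cells) there in aneurysm and 17.5 CPM (31 UMIs, 192 cells) in room air, a ratio of 0.36 (0.18 to 0.69) with 7.48% of genes called lower in that cluster and 5.36% higher. In cluster 19 the levels were 16.8 and 19.7 CPM, a ratio of 0.85, and in cluster 6 they were 8.24 and 12.1 CPM, a ratio of 0.68, both within 1.5-fold, with 10.3% and 9.63% of genes called lower. Without cluster 20 the class ratio fell within 1.5-fold, at -0.56 on the log2 scale against -0.87 with it. It also fell within 1.5-fold when cells were classed singly by their markers (-0.55) and with a mean over cells (-0.58). The monocyte-like class had 12.9 CPM in aneurysm (21 UMIs), 29.1 CPM in room air (14 UMIs) and 11.3 CPM in control (2 UMIs), a ratio of 0.44 (0.22 to 0.94) of aneurysm to room air against 11.3% of genes called lower and 12.1% higher. Within its larger cluster 7 (Chil3, Hp) the ratio was 0.38 (0.17 to 0.87), with 11.9% lower and 13.4% higher. The monocyte-like ratio fell within 1.5-fold when cells were classed singly, at -0.36 against -1.17 on the log2 scale. Neutrophil-like cells had 28.9 CPM (19.4 to 41.6) in aneurysm and 31.5 CPM (18.9 to 49.2) in room air, a ratio of 0.92. These intervals overlap those of monocyte-like cells, 8.00 to 19.7 and 15.9 to 48.8, so no myeloid class stood clearly highest. Thinned shares of neutrophil-like and monocyte-like cells were 2.86% and 1.26% in aneurysm, and 3.49% and 6.12% in room air. In cDC2-like cells Tnf had 10.7 CPM in aneurysm (21 UMIs) and 4.42 CPM in room air (4 UMIs), a ratio of 2.42 (0.82 to 9.71), which is called higher although its interval includes 1. Thinned to 1500 UMIs per cell its log2 ratio turned to -0.69, from 4 UMIs in aneurysm and 0 in room air set at the floor of 3 counts. Neutrophil-like cells also held macrophage markers at a summed 11375 CPM in aneurysm and 13294 CPM in room air, beside neutrophil markers at 10387 and 11256 CPM. Gamma-delta T-like cells had 51.4 CPM in aneurysm (8 UMIs) and 38.1 CPM in room air (6 UMIs), at 57 and 58 cells.

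Immediate early and heat-shock genes, a list known to react to tissue dissociation, were also lower in aneurysm. Of its 22 genes, 6 were called lower and 0 higher in aneurysm macrophage-like cells, against 6.8% and 3.82% of all genes tested. The median log2 ratio of the list was -0.33 against -0.02 over all genes. Its summed level was 5587 CPM in aneurysm, 7661 CPM in room air and, in control, 7061 CPM, with Hspa8, Junb and Jund at the highest levels in aneurysm and room air. In all 10 classes compared the summed level was lower in aneurysm, by ratios of 0.53 to 0.77. The marker sum of neutrophils in the macrophage-like class was 210 CPM in aneurysm, 405 CPM in room air and, in control, 240 CPM, where 1 of its 7 genes was at 0. The part of either in the Tnf values was not tested. Viability stated for the cells was 94%, 91% and 73% in aneurysm, room air and control.

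Tnip3, the A20 partner, was higher in macrophage-like cells of the aneurysm library. It had 31.9 CPM (27.4 to 36.9, 178 UMIs) in aneurysm, 16.0 CPM (12.5 to 20.3, 68 UMIs) in room air and 8.85 CPM (4.24 to 16.3, 10 UMIs) in control. The aneurysm interval lies above both others, and those of room air and control overlap. The ratio of aneurysm to room air was 1.99 (1.49 to 2.67), and Tnip3 was the 1 member called higher, against 3.82% of genes. Within clusters the ratio was 2.68 (1.58 to 4.71) for cluster 19, with 5.5% of genes called higher. For cluster 20 it was 1.73 (1.17 to 2.59), and for cluster 6 it was 2.08 (0.95 to 5.15), with 8.94% of genes called higher. The level was thus higher in aneurysm in the 3 clusters that could be compared, but the interval of cluster 6 includes 1. Thinned shares in aneurysm and room air were 1.64% and 1.98% in cluster 6, the other direction. They were 4.39% and 1.56% in cluster 19, and 6.23% and 2.60% in cluster 20. A Tnip3 UMI was seen in 15.3% of macrophage-like cells in aneurysm, 8.72% in room air and 2.32% in control, against 1.35%, 0% and 0% of B cell-like cells. Thinned shares were 4.29%, 1.96% and 0%.

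Beyond macrophages, Tnip3 was high in 2 of the 3 conventional or mature dendritic classes. Mature dendritic cell-like cells had 94.3 CPM in aneurysm and 74.4 CPM in room air, and cDC2-like cells 73.5 and 46.4 CPM, a ratio of 1.58 (1.11 to 2.29) for cDC2-like cells against 8.99% of genes called higher and 9.4% lower. The cDC1-like class had 1.59 CPM in aneurysm (1 UMI), below macrophage-like cells. In room air it had 14.4 CPM (4.68 to 33.6, 5 UMIs), an interval that includes the macrophage-like level of 16.0 CPM. In neutrophil-like cells the ratio was 1.73 (0.75 to 4.48), with 8.73% called higher and 12.1% lower. In T cell-like cells it had 2.29, 3.51 and 0 CPM in aneurysm, room air and control. Free RNA alone was estimated to give 2.37 and 3.40 CPM there in aneurysm and room air, so these T cell counts are at background. NK-like and ILC2-like cells held 0 UMIs in the libraries that had at least 25 of them.

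**Figure D2:**
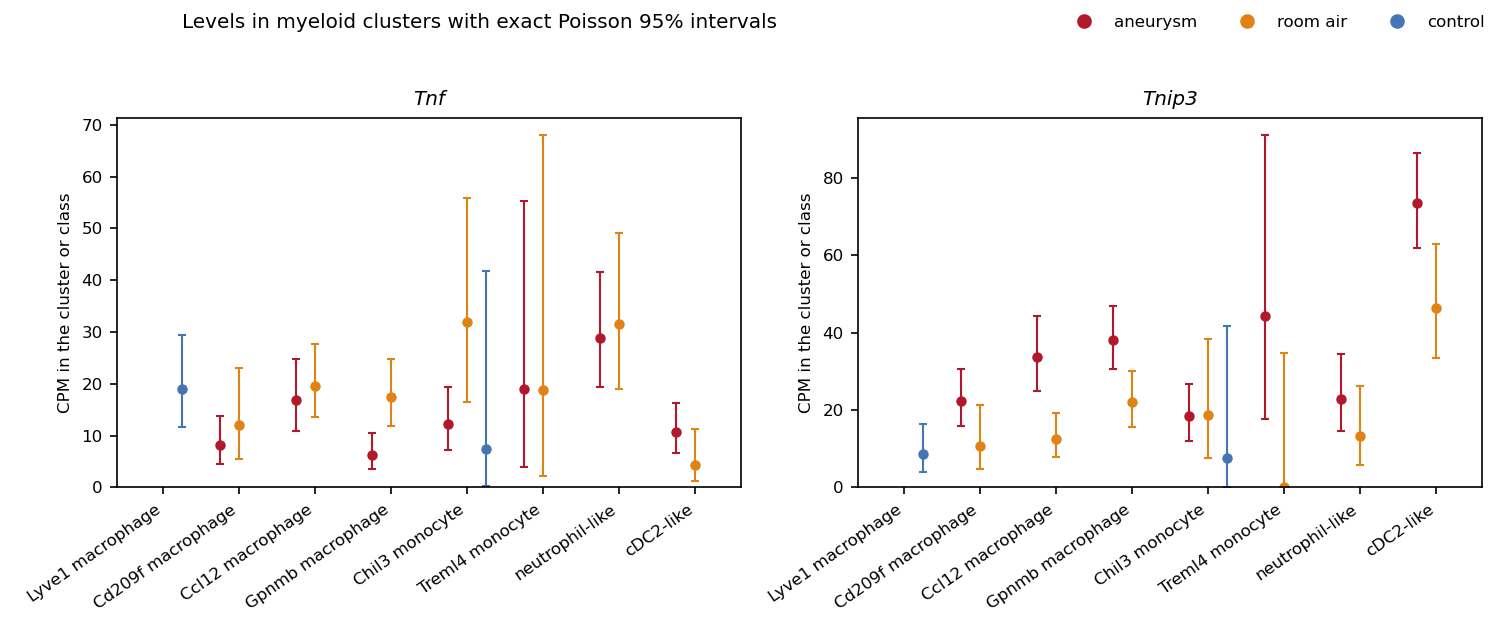
Tnf (left panel) and Tnip3 (right panel) in CPM by myeloid cluster or class, with aneurysm left of room air and control in each group. Points are levels with exact Poisson 95% intervals, shown where a library has at least 25 cells. Tnf in the Gpnmb macrophages is 6.35 CPM in aneurysm and 17.5 CPM in room air. Tnip3 is higher in aneurysm in the Cd209f, Ccl12 and Gpnmb macrophages, with overlapping intervals in the Cd209f macrophages.

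In macrophage-like cells the 2 genes described so far moved in opposite directions, and the 7 others stayed within 1.5-fold between aneurysm and room air. Nfkbia, the classical inhibitor, had 242 CPM (230 to 256) in aneurysm, 283 CPM (267 to 299) in room air and 237 CPM (210 to 267) in control. Its ratio of aneurysm to room air was 0.86 (0.79 to 0.93), an interval that leaves out 1 and stays within 1.5-fold. Nfkbiz had 78.1 CPM in aneurysm, 88.0 CPM in room air and, in control, 82.3 CPM, and Nfkbid 10.2, 10.1 and 13.3 CPM. Among the subunit genes, Nfkb1 had 81.5 CPM in aneurysm, 79.2 CPM in room air and, in control, 57.5 CPM. Tnfaip3, which encodes A20, had 16.6 CPM in aneurysm and 20.04 CPM in room air, a ratio of 0.83 (0.61 to 1.13).

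Room air against control gave another picture, in which 4 members were called higher and 0 lower in macrophage-like cells, against 24.7% higher and 13.8% lower of 9522 genes. Nfkb2, the subunit of the alternative arm of the pathway, had 40.1 CPM (34.3 to 46.6) in room air, against 13.3 CPM (7.43 to 21.9) in control, a ratio of 3.02 (1.78 to 5.52). Tnfaip3 had 20.04 CPM (16.0 to 24.8) in room air, against 6.19 CPM (2.49 to 12.8, 7 UMIs) in control, a ratio of 3.24 (1.504 to 8.29). Rel had 36.1 CPM (30.6 to 42.3) in room air, against 19.5 CPM (12.2 to 29.5) in control, a ratio of 1.85 (1.18 to 3.04). For these 3 genes the intervals of the 2 libraries do not overlap. Tnip3 had a ratio of 1.81 (0.93 to 3.95), resting on 10 control UMIs, and fell within 1.5-fold without cluster 20, at 0.38 on the log2 scale against 0.86.

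Clusters differ between these libraries, so their levels are set side by side. Nfkb2 had 28.3, 42.3 and 44.1 CPM in room air clusters 6, 19 and 20, and 13.3 CPM in control cluster 2. Tnfaip3 had 25.6, 20.2 and 17.5 CPM in the same room air clusters and 6.67 CPM in control cluster 2. For both genes each room air cluster was above the control cluster. Cluster 2 of room air, with 12 cells, held 0 Nfkb2 UMIs and 1 Tnfaip3 UMI, too few to compare like with like.

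**Figure D3:**
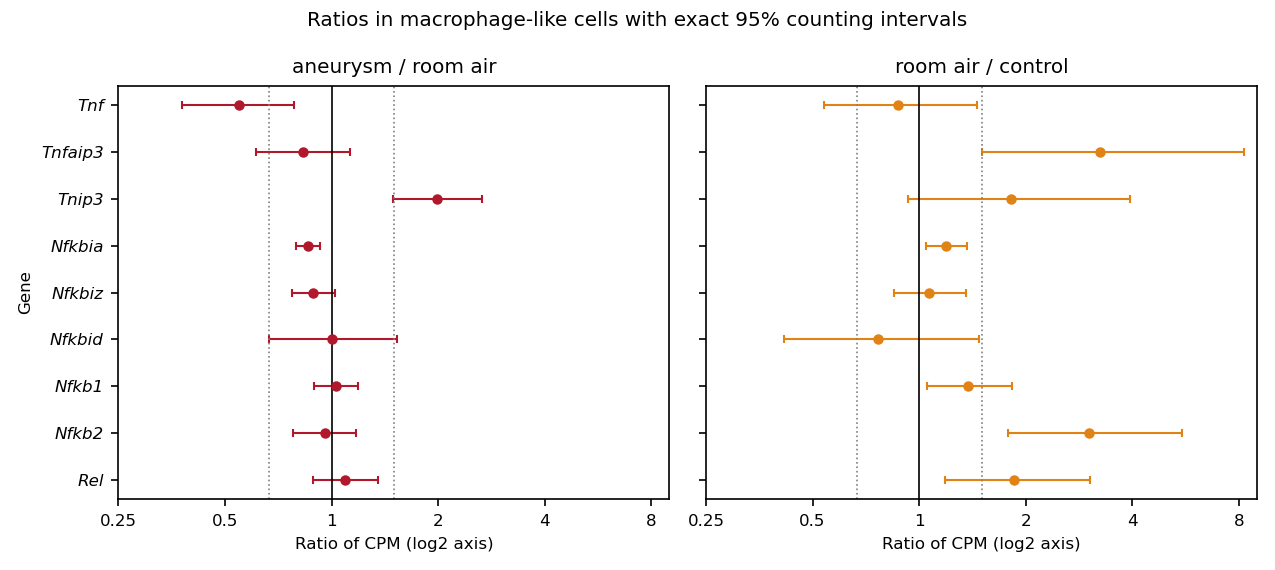
Ratio of CPM in macrophage-like cells for the 9 genes, aneurysm over room air on the left and room air over control on the right, on a log2 axis with exact 95% counting intervals. Dotted lines mark 1.5-fold. Tnf lies at 0.55 and Tnip3 at 1.99 on the left, and Tnfaip3 and Nfkb2 lie at 3.24 and 3.02 on the right. The 2 panels share the room air library.

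Tnfaip3 was highest in ILC2-like cells of aneurysm and room air. ILC2-like cells, innate lymphocytes that release type 2 cytokines, had 217 CPM (148 to 306, 32 UMIs) in aneurysm, 317 CPM (196 to 484, 21 UMIs) in room air and 15.9 CPM (0.40 to 88.8, 1 UMI) in control. Aneurysm and room air are above control with intervals that do not overlap it. The ratio of room air to control was 19.9 (3.19 to 821), with 19.4% of genes called higher and 16.1% lower and a control count of 1 UMI. NK-like cells of aneurysm had 87.9 CPM, T cell-like cells 57.8 CPM and B cell-like cells 6.26 CPM. ILC2-like cells with a Tnfaip3 UMI made up 45.5%, 60% and 3.12% in aneurysm, room air and control, at 44, 25 and 32 cells, beside 1.79%, 3.11% and 1.01% of B cell-like cells. Thinned to 1500 UMIs the ILC2-like shares were 31.8%, 32% and 3.57%, with 4 shallower control cells left out.

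T cell-like cells had 57.8 CPM of Tnfaip3 in aneurysm (101 UMIs), 49.1 CPM in room air (56 UMIs) and 4.86 CPM in control (1 UMI). Of the 9 members 6 had enough UMIs, and these 6 were called higher in room air than control, beside 40.1% of the 5942 genes tested in this class, while 7% were called lower. They were Tnfaip3, Nfkb2, Nfkb1, Nfkbia, Nfkbiz and Rel, with ratios of 10.1 (1.74 to 406), 7.39 (1.25 to 299), 2.50 (1.17 to 6.38), 2.32 (1.44 to 3.99), 1.98 and 1.98 (both 0.62 to 10.1). The control UMIs behind them were 1, 1, 7, 18, 3 and 3. Free RNA was estimated at 11.1% (Tnfaip3) to 47.2% (Nfkbiz) of these levels in room air. In control it was 8.26% (Tnfaip3) to 18.0% (Nfkb2). Nfkbiz had a log2 ratio of -0.054 when cells were classed singly by their markers. Clusters also differed, since cluster 14 (Gzmk, Ccl5) held 240 of the room air T cells and 10 of the control T cells. In cluster 15 (Dapl1, Cd8b1), Tnfaip3 had 3 UMIs in room air and 1 in control, a ratio of 1.24 (0.10 to 65.3). Nfkbia could be compared within clusters, with ratios of 2.98 (1.51 to 6.72) in cluster 13, where 39.2% of genes were called higher and 8.28% lower, and 3.14 (1.42 to 8.18) in cluster 15, where 27.3% were called higher and 7.55% lower. The dissociation list in T cell-like cells had 12 genes called higher and 2 lower, at a summed 7099 CPM in room air, against 4493 CPM in control, and its part was not tested.

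Between aneurysm and room air Tnfaip3 ratios differed in size by T cell cluster, a difference that was not tested. In cluster 15 it had 47.2 CPM (37 UMIs) in aneurysm and 13.1 CPM (3 UMIs) in room air, a ratio of 3.59 (1.14 to 18.2), with 11.7% of genes called higher. In cluster 13 (Izumo1r, Cd4) it had 54.5 and 26.6 CPM, a ratio of 2.05 (0.92 to 5.15), with 8.48% of genes called higher and 18% lower. Cluster 14 had 83.6 and 73.5 CPM, a ratio of 1.14, with 9.29% called higher and 15.9% lower. Nfkbia went the other way, with 113 CPM in aneurysm and 232 CPM in room air in cluster 15, a ratio of 0.49 (0.34 to 0.70) against 19.5% of genes called lower. Its ratio in cluster 13 was 0.64 (0.48 to 0.85). The dissociation list was lower in both, at a summed 4013 CPM in aneurysm and 6996 CPM in room air in cluster 15, and its part in these values was not tested. Over all T cell-like cells, free RNA was estimated at 17.3% of the Nfkbia level in aneurysm and 29.4% in room air. Its part in the cluster ratios was not tested.

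Counts over the other classes stayed small. Between aneurysm and room air, monocyte-like cells had 0 members called higher and 2 lower of 9 measured, Tnf and Nfkbiz (42.4 CPM in aneurysm, 74.8 CPM in room air), with 12.1% of genes called higher and 11.3% lower. B cell-like cells had 0 higher and 2 lower of 6, Nfkbiz and Nfkbid (Nfkbiz turned to 0.54 on the log2 scale with free RNA subtracted), with 7.1% of genes called higher and 16.6% lower. T cell-like cells had 1 lower of 7, Nfkbid, with 6.2% higher and 18.6% lower. In cDC1-like cells Nfkb1 was higher and Nfkbiz lower of 5, with 14.2% and 9.14%. Mature dendritic cell-like cells had 0 of 6 called (11.2% and 14.5%), ILC2-like cells 0 of 4 (14.1% and 14.6%) and gamma-delta T-like cells 0 of 3 (14% and 12%). Between room air and control, 1 member was called higher and 0 lower in monocyte-like cells (Nfkb2, 27.1% and 8.08% of genes), cDC1-like cells (Nfkbia, 29.3% and 8.16%) and B cell-like cells (Nfkb1, 26.1% and 11.1%). In these pairs the first percentage is of genes called higher and the second of genes called lower. ILC2-like cells had 2 higher of 3 measured, Tnfaip3 and Nfkb1, with 19.4% and 16.1%.

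The subunit genes were highest in dendritic and innate lymphoid cells. Mature dendritic cell-like cells, the migratory Ccr7 state, had 249 CPM of Nfkb2 in aneurysm and 284 CPM in room air, and 195 and 186 CPM of Rel. The next highest class had 107 and 112 CPM of Nfkb2 (cDC2-like) and 86.0 and 99.4 CPM of Rel (B cell-like), below the interval of the mature cells in both libraries. Nfkbia was also at its highest there, with 702 CPM in aneurysm and 637 CPM in room air. Rel had 0 UMIs in 44 aneurysm and 25 room air ILC2-like cells, which allows up to 20.3 and 45.2 CPM at a floor of 3 counts, and 2 UMIs in 32 control cells. B cell-like cells had 86.0, 99.4 and 118 CPM of Rel, a subunit of B cell activation, in aneurysm, room air and control, with overlapping intervals.

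Nfkb1 was highest in ILC2-like cells, at 365, 422 and 271 CPM in aneurysm, room air and control, and next in cDC2-like cells at 237 CPM in aneurysm and 195 CPM in room air. Nfkbiz was highest in ILC2-like and neutrophil-like cells of aneurysm and room air, with overlapping intervals, at 129 and 123 CPM in aneurysm and 181 and 146 CPM in room air. Within macrophages Nfkbiz was highest in cluster 19, with 107 CPM in aneurysm and 126 CPM in room air, against 60.9 and 52.5 CPM in cluster 20. Nfkbid reached 61.2 CPM (34.96 to 99.3) in NK-like cells of aneurysm, from 16 UMIs in 5 of 73 cells. That share of cells, 6.85%, was near the 7.67% of aneurysm macrophage-like cells, so a few cells carried the level. Elsewhere Nfkbid stayed at or below 22.5 CPM in the classes with at least 25 cells.

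**Figure D4:**
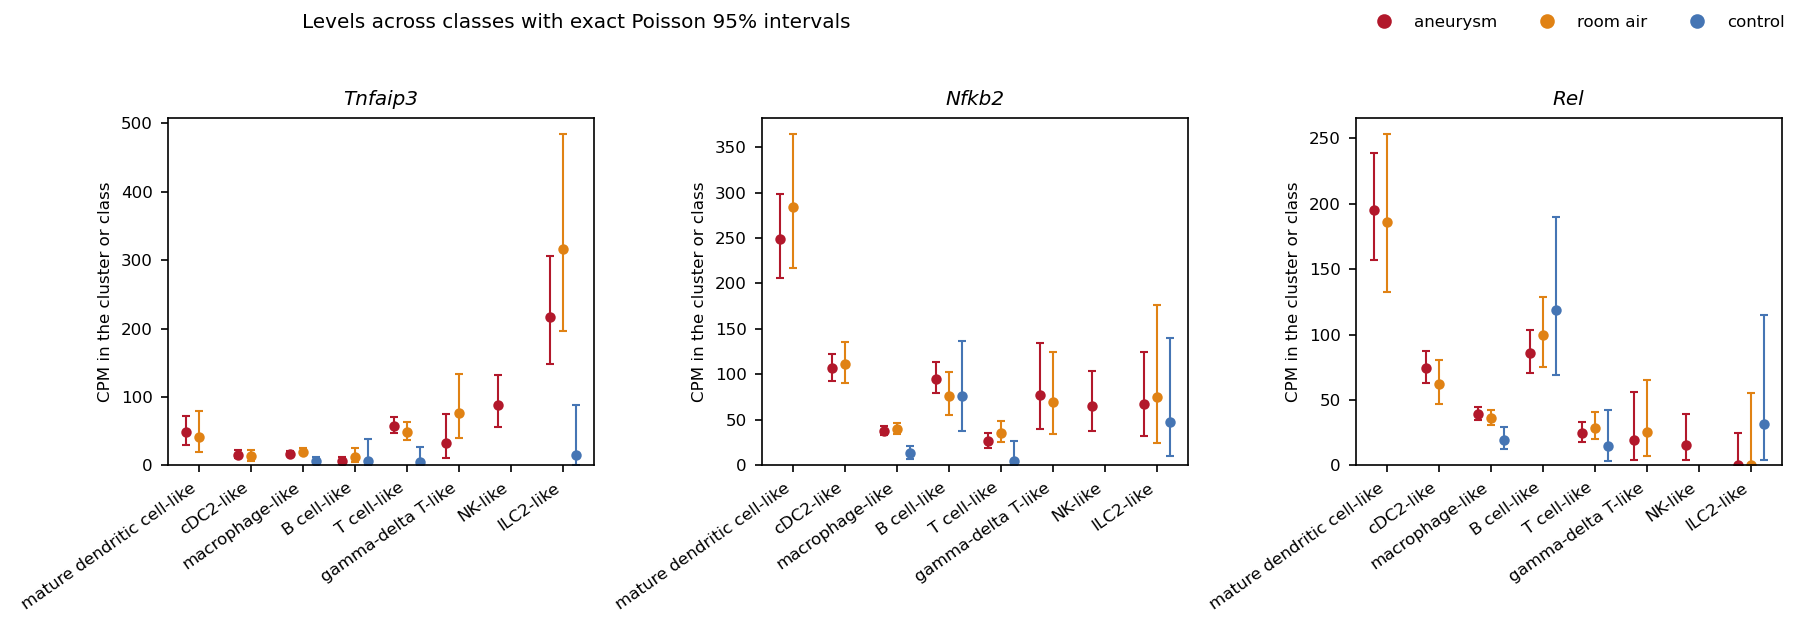
Levels of Tnfaip3, Nfkb2 and Rel in CPM across 8 classes, with aneurysm left of room air and control. Points carry exact Poisson 95% intervals and are shown where a library has at least 25 cells. Tnfaip3 peaks in ILC2-like cells of aneurysm and room air at 217 and 317 CPM, and Nfkb2 and Rel in mature dendritic cell-like cells.

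Other genes of the pathway were counted from a list of 69 in 8 roles. In macrophage-like cells, aneurysm against room air, 66 were measured, of which 3 were called higher and 5 lower, beside 3.82% and 6.8% of all genes tested, with a median log2 ratio of -0.01 against -0.02 over all genes. These counts are near the share over all genes. The chemokine Cxcl3 had the highest ratio, 5.88, from 31 UMIs in aneurysm and 4 in room air. Lta, which encodes lymphotoxin, had 3.04 (0.98 to 12.5, 16 and 4 UMIs), and Bcl3, a nuclear IkB family member, had 42.6 CPM in aneurysm and 28.3 CPM in room air, a ratio of 1.51. The genes called lower were Il10, Ptgs2, N4bp1, Ccl4 and Tnfsf13b, of which Il10 (0.22 to 1.31) and Ptgs2 (0.31 to 1.04) have intervals that include 1. Of these the chemokine Ccl4 had most counts, 184 CPM in aneurysm and 287 CPM in room air, a ratio of 0.64. None of the 19 adaptors and kinases was called in either direction.

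Room air against control, 61 of the 69 were measured in macrophage-like cells, of which 31 were called higher and 3 lower. Of all genes tested in this pair, 24.7% were called higher and 13.8% lower. The median log2 ratio of the list was 0.60 against 0.13 over all genes. Here too, clusters 6, 19 and 20 are set against cluster 2, so the values do not compare like cells. Among induced cytokines and chemokines 6 of the 7 measured were higher, and among other induced targets 9 of 12. Il1b, the gene of interleukin 1 beta, had 128 CPM in room air, against 26.5 CPM in control, a ratio of 4.81. Cxcl16 had 636 and 164 CPM in room air and control, Bcl2a1b 357 and 105 CPM (uncertain, because reads of its near-identical copies can be split), and Ccl4 287 and 93.8 CPM. Plaur, Clec4e, Cxcl1 and Ptgs2 had ratios of 4.02, 10.3, 3.09 and 7.46, the last 3 from 3, 5 and 1 control UMIs. The intervals were 3.44 to 50.7 for Clec4e and 1.23 to 305 for Ptgs2. Otud7b, a deubiquitinase, was lower at 4.01 CPM in room air, against 16.8 CPM in control, as were Marcksl1 and Ier3.

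Members were also compared by their pattern over 27 combinations of class and library, using log2(CPM + 10) of 5731 genes. These units share libraries, so each correlation is a description. Nfkb2 was most like Relb (r = 0.86), which encodes its usual dimer partner, and Nfkbib (0.85), another IkB. Tnip3 was most like Cd80 (0.89), a costimulatory surface protein, Nfkbiz most like Glul (0.89) and Fosl2 (0.86), Tnfaip3 most like Ctla2a (0.83), and Tnf most like Smox (0.84). Among pairs of members the closest was Nfkbia with Nfkb2, at 0.69. Several members were seen at once in few macrophage-like cells and in more cells of some other classes. Thinned to 1500 UMIs, 3.83% of macrophage-like cells in aneurysm, 3.38% in room air and 0.70% in control had UMIs of 3 or more members. None of the 9 was seen in 47.2%, 42.5% and 53.9%. Among mature dendritic cell-like cells 20.7% in aneurysm and 26.3% in room air had 3 or more, and among ILC2-like cells 20.5% in aneurysm, 8% in room air and 3.57% in control.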

How the data were processed

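Single-cell RNA was measured in 3 libraries, 1 per group, grouped by the labels. The values the authors deposited are counts of UMIs per gene and barcode, not normalized, and the submitters' processing notes name Cell Ranger, STAR and mm10. The sources used here give no tool versions. The files hold 2842, 1851 and 782 barcodes in aneurysm, room air and control, beside 2685, 1736 and 738 cells stated in the labels. Barcodes shared by libraries numbered 5 (aneurysm and room air), 0 (aneurysm and control) and 4 (room air and control). Barcodes with at least 200 genes and at most 10% mitochondrial UMIs were kept. Scrublet's own threshold marked 0, 1 and 2 cells and was not used, so the highest scores were removed at 0.8% per 1000 barcodes (64, 27 and 5 cells).

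Cells were clustered without integration in scanpy 1.11.5 (10000 counts per cell, 2000 variable genes, 30 components, 15 neighbours, Leiden resolution 1). Clusters were named with the suffix -like from listed markers, with at least 3 detected in 10% of cells and a score of at least 0.6. Clusters 2, 6, 19 and 20 had none of the macrophage markers among their 10 leading genes. Pf4 was not counted as a platelet marker for cluster 2, because resident macrophages make it. Cluster 5 was left unnamed, a choice made after its genes were seen, because its leading genes, Ikzf2 and Izumo1r, went against its marker score, and cluster 9 (Retnla, Lyz1, Ear2) because it had 0 detected markers. UMIs were summed per class and library and divided by the class total to give CPM, with exact Poisson intervals, and ratios have exact conditional binomial intervals. These are counting error only. A level of 0 was set at a floor of 3 counts. Classes needed 25 cells. Levels were also computed after thinning to 1500 UMIs per cell, which left out shallower cells only in control. The ratio interval was tried on simulated Poisson counts only. Such counts hold no spread between cells or mice, so the trial cannot show that the intervals cover that spread. Alternatives were TMM and median-of-ratios scaling, clusters formed without the listed genes, classes from each cell's own markers, no doublet removal, free RNA subtraction, thinning, means over cells, other count minimums and leaving out macrophage-like clusters.

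All 9 members were named. Other pathway genes were counted over the list, with at most 8 per direction named. The members and lists were chosen with earlier results of these data known. Promoters came from RefSeq (GRCm38.p6) and positions from GENCODE for GRCm38.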

Additional observations from a re-analysis of the deposited data

Results flagged for a closer look

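Tnf is given here because its aneurysm to room air ratio went in opposite directions in different cell classes. On the log2 scale it was -0.87 in macrophage-like cells (54 UMIs in aneurysm, 75 in room air), -1.17 in monocyte-like cells (21 and 14 UMIs) and 1.28 in cDC2-like cells (21 and 4 UMIs). The difference between the classes was not tested. The cDC2-like ratio of 2.42 has an interval of 0.82 to 9.71. With cells thinned to 1500 UMIs it was -0.69 on the log2 scale, from 4 UMIs in aneurysm and 0 in room air set at the floor of 3 counts, so the opposite direction in this class rests on few counts and on that setting.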

How the results depend on the processing

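Of 985 values of single genes under an alternative, 968 stayed within the 95% counting interval of their main value, which is wide for genes with few UMIs, 14 moved beyond it and 3 values past 1.5-fold changed sign. Past 1.5-fold in the main setting, 233 stayed past it and 40 fell within it. These counts, and the tallies over alternatives below, include the count minimums of 1 and 50 UMIs. Those settings change only which genes are kept, so their ratios equal the main value by design and test nothing. The count of members called lower in macrophage-like cells, aneurysm against room air, was 1 (Tnf), and 0 when cells were classed singly by their markers (Tnf at -0.55, log2), with means over cells (-0.58) and without cluster 20 (-0.56); the cause was not tested. Over 14 alternatives Tnf ranged from -1.21 to -0.55 and Tnip3 from 0.77 to 1.22, past 1.5-fold in 11 and 14 of them. In the monocyte-like class Tnf fell within 1.5-fold with each cell's own markers (-0.36). Room air against control, the count called lower was 0, and 1 with each cell's own markers (Nfkbid at -0.86). Tnfaip3, Nfkb2 and Rel stayed past 1.5-fold in 13 of 13 alternatives. The sign changed for Nfkbiz in T cell-like cells, room air against control, with own markers (-0.054), for Nfkbiz in B cell-like cells, aneurysm against room air, with free RNA subtracted (0.54), and for Tnf in cDC2-like cells when thinned (-0.69), where 4 UMIs in aneurysm stood against 0 in room air set at the floor. TMM factors shifted log2 ratios by up to 0.22, in T cell-like cells between room air and control. Leaving out cluster 2 for room air against control, and own-marker ILC2-like cells for the same pair, left too few cells and gave no value. No paired analysis was possible because each group has 1 library.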

Other observations

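Cluster 9, left unnamed and led by Retnla, Lyz1 and Ear2, had 34 control cells with 22 Tnip3 UMIs, a level of 107 CPM (67.0 to 162). That is above the interval of control macrophage-like cells, at 8.85 CPM (4.24 to 16.3). The same cluster held 15 aneurysm and 2 room air cells with 3 and 4 Tnip3 UMIs. Its Nfkbia level in control was 87.4 CPM, against 237 CPM in control macrophage-like cells. In control cDC2-like cells, of which there were 18, Tnip3 had 11 UMIs, a level of 140 CPM (69.9 to 251).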
